A study of Mus musculus with 6 samples.

Results

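The genes described here encode the nuclear end of canonical Wnt signalling: the 4 TCF/LEF transcription factors (Tcf7, Tcf7l1, Tcf7l2 and Lef1), 5 TLE corepressors (Tle1, Tle2, Tle3, Tle4 and Tle6) and β-catenin (Ctnnb1). They were selected by gene symbol, and all 10 were found among the 18268 genes listed. RNA sequencing had been performed on the colorectal tissue of 6 C57BL/6 mice, and the study compared colitis mice receiving berberine (BBR), a plant alkaloid, with colitis mice receiving sulfasalazine (SASP), a drug prescribed for ulcerative colitis. All 6 animals, adult males according to the methods of the study, were given DSS (dextran sulfate sodium), which damages the colonic epithelium, for 7 d. By gavage, 3 mice received BBR for 6 d and the other 3 received SASP for 6 d. No library of untreated mice or of mice given DSS alone was analysed here, so every difference below is one drug against the other. The study wrote of rectal samples for its BBR libraries and of colon samples for its SASP libraries, whereas the labels name the same tissue for all 6. A difference of gut segment or of sequencing run between the groups therefore cannot be told apart from the drug. The labels list separate samples but do not say more about their origin, so p-values measure the spread between these 6 samples.

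In canonical Wnt signalling, Wnt ligands halt the destruction of β-catenin, which then enters the nucleus and binds TCF/LEF proteins on DNA. Without β-catenin, TCF/LEF proteins recruit TLE (Groucho) corepressors and keep target genes silent, and β-catenin converts them into activators. In the intestinal crypt this switch maintains stem cells and the proliferation of their progeny.

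Values are FPKM, fragments scaled by transcript length and by the mapped total of each library, and mice are numbered within each group by accession only. A gene was tested if it reached 1 FPKM in 3 or more mice, which 12072 genes did. Of the 10 genes, 8 were tested and Tcf7 and Lef1 were not. Changes are given as log2 fold changes of BBR over SASP on the log2(FPKM + 1) scale, which understates changes of low genes. They were tested with limma, with Benjamini-Hochberg adjustment over all tested genes and a threshold of 0.05.

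Of the 8 tested genes, 3 rose with BBR relative to SASP: the corepressor genes Tle3, Tle6 and Tle2. Neither Tle6 nor Tle2 reached 1 FPKM in all 3 SASP mice, so both were tested only because of their higher BBR values. Over all tested genes, 8.86% passed the threshold, 3.82% as higher and 5.04% as lower in BBR. None of the 8 fell past the threshold by limma, and 1, Tle4, was lower at an unadjusted p under 0.05, as were 13.4% of all tested genes. The median log2 fold change of the 8 genes was 0.39, and that of all tested genes was 0.10. The 0.39 rests on Tle2 and Tle6. With a mean FPKM of at least 5 required, which leaves both out, the median was -0.079, and that of all genes 0.058. By direction alone, 5 of the 8 were higher in BBR, as were 7337 of all 12072 tested genes, and 4735 were lower. The study displayed Tle6, Tcf7l1, Tle2 and Tle3 among Wnt pathway genes picked on these same libraries, so the direction of these 4 is not independent evidence. Without BBR mouse 3, which correlated less with its own group (0.949 to 0.953) than the other BBR pair did (0.987), 5 of the 8 passed, 4 higher and 1 lower. Calls rose throughout in that fit, to 33.6% of all tested genes, 22.2% as higher and 11.3% as lower. Without any 1 of the other mice, between 0 and 1 passed. Calls fell throughout in those fits, from 1069 of all 12072 tested genes to between 96 and 522. With no filter on low values, 608 of 18260 genes passed, Tle6 among them (limma adjusted p = 0.0468). Tle3 (limma adjusted p = 0.0591) and Tle2 (limma adjusted p = 0.0654) did not pass in that fit. The fold changes of Tcf7l1, Tle1, Tle2, Tle3, Tle4 and Tle6 kept their sign in every alternative run.

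**Figure D1:**
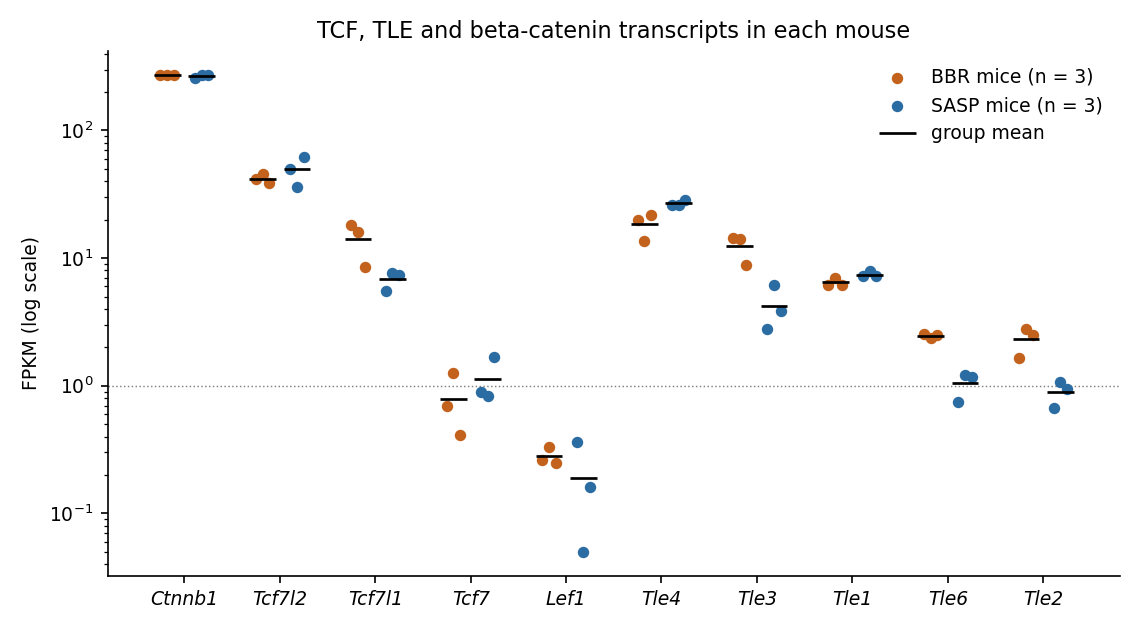
FPKM of each gene in each mouse on a log axis, with BBR mice in orange, SASP mice in blue, a black bar at each group mean and a dotted line at an FPKM of 1. Tle3, Tle6, Tle2 and Tcf7l1 sit higher in all 3 BBR mice than in any SASP mouse, Tle4 and Tle1 sit lower, and Ctnnb1 lies between 258.9 and 273.8 FPKM in all 6 mice.

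The upstream sequences of the 3 genes that rose and of Tle4, the most abundant corepressor and the one with the lowest fold change, are shown because the shares of these 4 genes among TLE transcripts did not overlap between the drugs. Each run is the 250 bases before an annotated RefSeq start (GRCm38.p6), 5′ to 3′ on the gene's strand, from chr9:61372116-61372365 (plus strand) for Tle3, chr10:81600901-81601150 (minus strand) for Tle6, chr10:81575037-81575286 (plus strand) for Tle2 and chr19:14598184-14598433 (minus strand) for Tle4. The first listed start site was used for Tle6 and Tle4, which have more than 1. Capitals mark CACGTG, the E-box bound by the circadian activators CLOCK and BMAL1 and also by MYC and MAX.
Tle3: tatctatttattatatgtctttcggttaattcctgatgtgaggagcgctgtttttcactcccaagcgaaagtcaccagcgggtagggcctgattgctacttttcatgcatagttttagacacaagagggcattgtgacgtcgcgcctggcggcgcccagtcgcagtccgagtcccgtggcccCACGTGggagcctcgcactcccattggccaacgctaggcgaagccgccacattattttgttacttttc
Tle6: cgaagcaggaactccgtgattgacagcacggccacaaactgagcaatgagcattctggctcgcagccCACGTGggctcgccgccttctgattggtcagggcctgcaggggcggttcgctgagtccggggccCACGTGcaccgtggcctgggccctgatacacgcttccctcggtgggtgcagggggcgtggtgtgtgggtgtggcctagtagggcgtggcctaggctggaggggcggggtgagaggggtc
Tle2: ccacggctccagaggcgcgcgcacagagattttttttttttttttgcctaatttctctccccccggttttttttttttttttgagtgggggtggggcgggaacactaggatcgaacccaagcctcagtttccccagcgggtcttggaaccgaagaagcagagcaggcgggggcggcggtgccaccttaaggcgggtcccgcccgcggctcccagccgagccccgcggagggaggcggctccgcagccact
Tle4: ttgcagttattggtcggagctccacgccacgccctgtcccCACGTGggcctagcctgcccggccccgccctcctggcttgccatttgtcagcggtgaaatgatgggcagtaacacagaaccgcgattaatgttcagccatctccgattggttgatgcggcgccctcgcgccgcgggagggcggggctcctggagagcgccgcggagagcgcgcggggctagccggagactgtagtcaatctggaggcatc

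The E-box reads the same on both strands. It starts 68 bases before the annotated start of Tle3, 183 and 119 bases before that of Tle6 and 210 bases before that of Tle4, and the Tle2 run does not hold it. All 10 genes had an entry in the RefSeq promoter table, with 18 start sites, of which 4 held the E-box, in Tle3, Tle4, Tle6 and Lef1. Among 32851 promoters of all genes, 6.02% of the 250-base runs held it. The letters CTTTGAT, a TCF/LEF recognition sequence, were searched on both strands and were in none of the 18 runs, against 3.21% of all promoters. Of the 3 genes that rose, Tle3 and Tle6 held the E-box and Tle2 did not, and Tle4, with lower values in BBR, held it as well. These matches describe letters only and do not show binding.

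Tle3, which encodes a full-length corepressor expressed in many tissues, had the highest fold change of the 8. Its FPKM was 14.4, 14.2 and 8.84 in BBR mice 1, 2 and 3, and 2.77, 6.11 and 3.86 in SASP mice 1, 2 and 3. Every BBR mouse was above every SASP mouse, and BBR mouse 3 was the nearest to the SASP group. The means were 12.5 ± 3.15 and 4.25 ± 1.70 FPKM (SD, n = 3), a ratio of 2.94. The log2 fold change was 1.38 (SE 0.28, 95% interval 0.73 to 2.04, limma adjusted p = 0.0336). Its call was kept without BBR mouse 3 (1.59, adjusted p = 0.00832) and without SASP mouse 2 (1.63, adjusted p = 0.0328), and was lost without any 1 of the other 4 mice, where the fold change was 1.17 to 1.35.

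Tle6 encodes a divergent family member, best known from the maternal protein complex of the oocyte. It was measured at 2.56, 2.35 and 2.48 FPKM in the BBR mice and at 0.74, 1.21 and 1.18 FPKM in the SASP mice. The groups did not overlap, and the BBR mice differed from each other by much less than they did from the SASP mice. The log2 fold change was 0.77 (SE 0.15, 95% interval 0.42 to 1.12, limma adjusted p = 0.0290), with means of 2.46 ± 0.11 and 1.04 ± 0.26 FPKM (SD, n = 3). By an approximate conversion from transcript length and estimated depth, these levels correspond to about 26.5 to 85.6 reads per library. Its call was kept without BBR mouse 3 (adjusted p = 0.0186) and lost without any 1 of the others (fold change 0.66 to 0.83).

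Tle2, a full-length corepressor gene, had FPKM values of 1.66, 2.77 and 2.52 in BBR mice and 0.67, 1.07 and 0.94 in SASP mice. Again the groups did not overlap. BBR averaged 2.32 ± 0.58 FPKM and SASP 0.89 ± 0.20 FPKM (SD, n = 3), and the log2 fold change was 0.80 (SE 0.18, 95% interval 0.37 to 1.23, limma adjusted p = 0.0431). This was the weakest of the 3 calls. It too was kept only without BBR mouse 3 (adjusted p = 0.0356) when mice were left out in turn, with fold changes of 0.70 to 0.95.

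Tle4, the corepressor gene with the highest level, ran the other way. Its FPKM was 19.98, 13.7 and 21.6 in BBR mice and 26.1, 25.9 and 28.4 in SASP mice, so the highest BBR value lay under the lowest SASP value. The log2 fold change of -0.54 (SE 0.17, 95% interval -0.94 to -0.13) did not pass after adjustment (limma, adjusted p = 0.0869). Without BBR mouse 3 it passed (-0.66, adjusted p = 0.0239), in a fit where 33.6% of all tested genes passed. Without any 1 of the other mice it did not pass (-0.61 to -0.35, limma adjusted p = 0.130 to 0.230).

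Tle1, the remaining full-length corepressor gene, was at 6.19, 7.04 and 6.18 FPKM in BBR mice and at 7.18, 7.86 and 7.27 FPKM in SASP mice. The groups did not overlap but nearly touched, at 7.04 and 7.18 FPKM. Its log2 fold change was -0.18 (SE 0.11, 95% interval -0.45 to 0.10, limma adjusted p = 0.318).

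Among the TCF/LEF factors, Tcf7l1, better known as TCF3 and mainly a repressor, was at 18.1, 16.1 and 8.48 FPKM in BBR mice and at 5.54, 7.62 and 7.38 FPKM in SASP mice. BBR mice 1 and 2 stood well above the SASP mice, and BBR mouse 3 only just. The mean was 14.2 ± 5.07 FPKM with BBR and 6.85 ± 1.14 FPKM with SASP (SD, n = 3), a ratio of 2.08. The log2 fold change of 0.90 (SE 0.27, 95% interval 0.26 to 1.55) did not pass the threshold (limma, adjusted p = 0.0790), but it did without BBR mouse 3 (1.21, adjusted p = 0.00390). Without any 1 of the other mice it did not pass (0.71 to 0.98, limma adjusted p = 0.136 to 0.240).

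Tcf7l2 (TCF4), the main TCF factor of the intestinal epithelium and required for its crypts, was the highest TCF gene in every mouse. It was measured at 41.6, 45.5 and 38.8 FPKM in BBR mice and at 50.01, 35.9 and 62.4 FPKM in SASP mice. The SASP mice spanned the whole BBR range, and the log2 fold change was -0.20 (SE 0.20, 95% interval -0.66 to 0.26, limma adjusted p = 0.503).

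Tcf7 (TCF1) and Lef1, both prominent in T lymphocytes, were low. Tcf7 was at 0.69, 1.25 and 0.41 FPKM in BBR mice and 0.90, 0.83 and 1.68 FPKM in SASP mice. Lef1 was at 0.26, 0.33 and 0.25 FPKM in BBR mice and 0.36, 0.05 and 0.16 FPKM in SASP mice, which corresponds to about 3.32 to 23.4 reads per library. For both genes the groups overlapped, and at this depth no difference was detectable. Defining T cell markers were also low, with Cd3e at 0.57 to 1.2 FPKM in BBR mice and 0.32 to 0.67 FPKM in SASP mice. The markers did not share a direction. Cd8b1 averaged 0.36 FPKM in BBR mice and 1.46 FPKM in SASP mice. For Cd3e and Cd8b1 the groups overlapped, and both genes were too low to be tested. The 10 T cell markers, of which 2 were tested and 0 passed by limma (0 at an unadjusted p under 0.05), summed to 5.08 to 7.86 FPKM in BBR mice and 4.06 to 10.5 FPKM in SASP mice.

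Ctnnb1 encodes β-catenin, which also links cadherins to the cytoskeleton. Its transcript was at 270.2, 271.5 and 273.4 FPKM in BBR mice and at 258.9, 273.8 and 272.0 FPKM in SASP mice. All values lay within a narrow band and the groups overlapped. The log2 fold change was 0.02 (SE 0.10, 95% interval -0.21 to 0.25, limma adjusted p = 0.905), an interval that ends well under the fold change of Tle3. The fold change was -0.11 when libraries were scaled by median ratios and 0.11 with quantile normalization. These values concern RNA and not the protein, whose stability and place in the cell carry the Wnt signal.

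**Figure D2:**
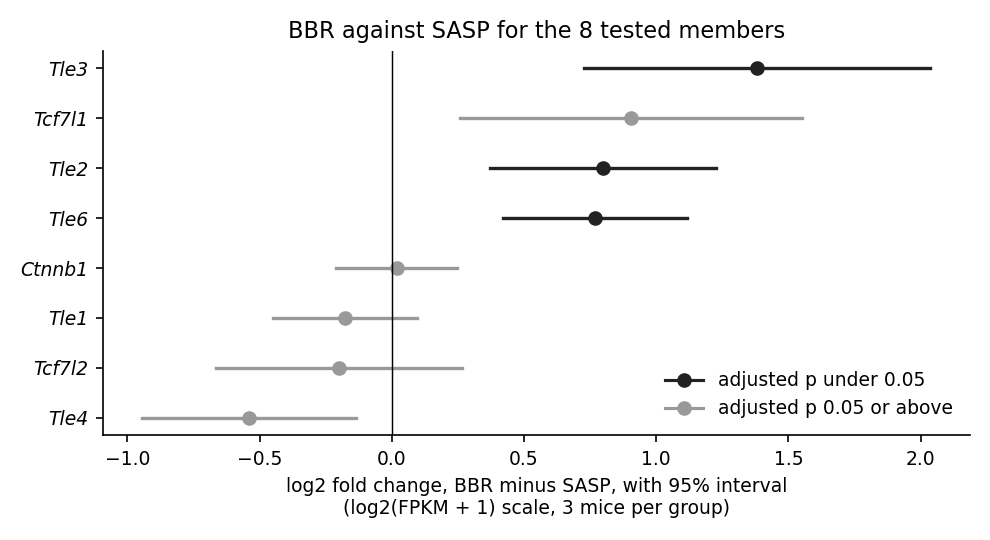
Log2 fold change of BBR over SASP for the 8 tested genes on the log2(FPKM + 1) scale, from 3 mice per group, with lines for the 95% interval and dark marks for an adjusted p under 0.05. The intervals of Tle3, Tle2 and Tle6 lie above 0 and pass, those of Tcf7l1 (0.26 to 1.55) and Tle4 (-0.94 to -0.13) leave out 0 but do not pass, and those of Ctnnb1, Tle1 and Tcf7l2 span 0.

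In 6 of the 8 tested genes the groups did not overlap, 4 of them higher in BBR and 2 lower, where 37.9% of all tested genes had groups that did not overlap. The 4 include Tle2 and Tle6, which were tested only because of their higher BBR values, so the filter itself favours that direction. Averaged over the 6 mice, the order of FPKM levels was Ctnnb1 (270.0), Tcf7l2 (45.7), Tle4 (22.6), Tcf7l1 (10.5), Tle3 (8.36), Tle1 (6.95), Tle6 (1.75), Tle2 (1.61), Tcf7 (0.96) and Lef1 (0.24). Ranges of neighbours overlapped from Tle4 through Tle1 and from Tle6 through Tcf7, so the order within these stretches is not firm. Tle3 exceeded Tle1 in 3 of the 6 mice, and those 3 were the BBR mice.

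The summed level of the 5 TLE genes overlapped between the drugs, while its make-up did not. The sum was 44.8, 40.1 and 41.6 FPKM in BBR mice and 37.5, 42.1 and 41.6 FPKM in SASP mice. Tle4 supplied 44.6%, 34.2% and 51.9% of that sum in BBR mice and 69.7%, 61.4% and 68.2% in SASP mice. Tle3 supplied 32.2%, 35.4% and 21.2% in BBR mice and 7.39%, 14.5% and 9.28% in SASP mice. Neither pair of shares overlapped between the groups, and in BBR mouse 2 Tle3 reached the level of Tle4. The FPKM ratio of Tle3 to Tle4 was 0.72 ± 0.31 with BBR and 0.16 ± 0.07 with SASP (SD, n = 3). Shares of Tle6 (5.71% to 5.96% against 1.97% to 2.87%) and Tle2 (3.70% to 6.92% against 1.79% to 2.54%) were also apart, and those of Tle1 overlapped. These ratios are taken within a library, so the scaling between libraries cancels.

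For the TCF/LEF genes, Tcf7l1 made up 29.8%, 25.5% and 17.7% of the summed FPKM in BBR mice and 9.75%, 17.1% and 10.3% in SASP mice. The groups were apart, but by little between BBR mouse 3 and SASP mouse 2. The sum itself was 47.9 to 63.1 FPKM in BBR mice and 44.4 to 71.6 FPKM in SASP mice. Set against the summed TLE genes, it gave a ratio of 1.36 ± 0.21 with BBR and 1.43 ± 0.34 with SASP (SD, n = 3), and these ranges overlapped.

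**Figure D3:**
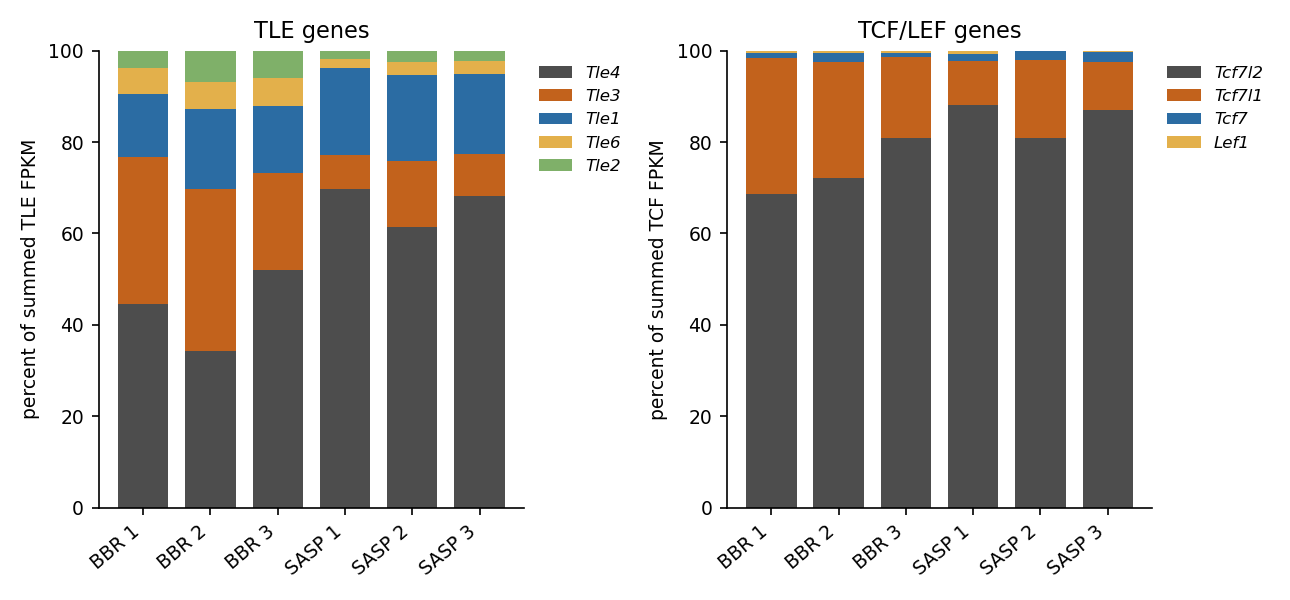
Stacked bars of the percent that each gene supplied to the summed FPKM of the TLE genes (left) and of the TCF/LEF genes (right) in each mouse. Tle4 fills 61.4% to 69.7% of the left bars in SASP mice and 34.2% to 51.9% in BBR mice, with a wider Tle3 segment in BBR mice, and the Tcf7l1 segment on the right is 17.7% to 29.8% in BBR mice and 9.75% to 17.1% in SASP mice.

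Tle2 and Tle6 share a stretch of chromosome 10 with Tle5 (older symbol Aes), a short relative that lacks the WD-repeat domain of the full-length corepressors. Tle5, Tle2 and Tle6 follow each other directly in the RefSeq gene order (GRCm38.p6). Tle2 lies on the plus strand and Tle6 on the minus strand, and in GENCODE M21 their 3′ ends face each other with 58 bases between them. Whether reads were counted by strand is not given in the sources used here, so reads that run past either end could not be assigned with certainty. Tle5 was at 290.1, 292.1 and 237.0 FPKM in BBR mice and at 177.8, 203.9 and 190.7 FPKM in SASP mice. The groups did not overlap, but its log2 fold change, 0.51 (SE 0.13), did not pass the threshold (limma adjusted p = 0.0523). Tle5 was 6.49 ± 0.80 times the summed TLE genes in BBR mice and 4.72 ± 0.13 times in SASP mice (SD, n = 3), and these ratios did not overlap.

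Of the genes next to this stretch, Gna11, a G protein subunit gene, had a log2 fold change of 0.31 (adjusted p = 0.317) and Sirt6, a deacylase gene, one of 0.18 (adjusted p = 0.393). Ankrd24, an ankyrin repeat gene one place beyond Sirt6, was at 4.39, 4.98 and 3.44 FPKM in BBR mice and 1.53, 2.15 and 1.66 FPKM in SASP mice. It rose with BBR by 0.92 on the log2 scale (SE 0.17, limma adjusted p = 0.0252). Leaving out mice in turn, Ankrd24 passed only without BBR mouse 3 or SASP mouse 2. The genes of this stretch that passed were therefore not contiguous.

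**Figure D4:**
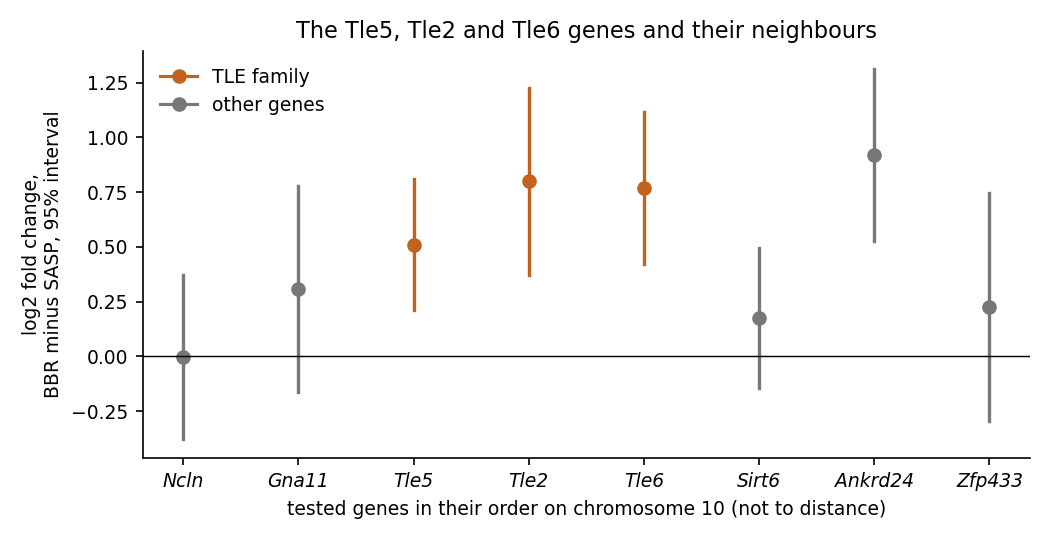
Log2 fold changes of BBR over SASP (log2(FPKM + 1) scale, 95% intervals, 3 mice per group) for Tle5, Tle2, Tle6 and the tested genes around them, placed by gene order and not by distance. Tle5, Tle2, Tle6 and Ankrd24 have intervals above 0, while Sirt6, between Tle6 and Ankrd24, and Gna11, before Tle5, have intervals that span 0.

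Markers of other cell types differed between the groups as well. The 7 smooth muscle markers summed to 2782 to 6598 FPKM in BBR mice and 706 to 2217 FPKM in SASP mice, with 7 of 7 higher in BBR and 0 past the threshold by limma (6 at an unadjusted p under 0.05). The 6 fibroblast markers summed to 173 to 250 FPKM against 78.0 to 143 FPKM, with 6 of 6 higher and 2 past the threshold. Of 5 endothelial markers, 5 were higher and 1 passed, and their sums were 13.9 to 28.1 FPKM in BBR and 6.55 to 10.02 FPKM in SASP mice. B cell markers went the other way, at a sum of 0.96 to 2.46 FPKM in BBR mice and 4.88 to 29.9 FPKM in SASP mice. Both of the 2 tested were lower, and 1 passed the threshold. Macrophage markers overlapped in sum (12.6 to 15.9 and 12.3 to 17.0 FPKM), with 3 higher, 2 lower and 1 of the 5 past the threshold as lower. Of 5 neuron and glia markers (11.3 to 34.5 and 6.86 to 16.1 FPKM), 3 were tested, 3 were higher and 0 passed by limma (1 at an unadjusted p under 0.05). Epithelial markers summed to 7287 to 9901 and 7211 to 7536 FPKM, with 8 of 10 higher, of which 2 passed, and 2 lower, of which 1 passed. No listed marker was at 0 in all 6 mice. Pan-epithelial Epcam overlapped, at 943.3 to 1044 and 833.2 to 1101 FPKM, so epithelium was well represented in all 6 mice. Krt8, Krt19, Muc2 and Slc26a3 overlapped too. The other epithelial markers were apart, so the epithelial profile was not alike between the drugs. Cdx2 and Krt18 rose, with BBR over SASP ratios of means of 3.06 and 1.68 (limma adjusted p = 0.0422 and 0.0163). Vil1 fell, with a ratio of 0.68 (limma adjusted p = 0.0327). Car1 (ratio 3.84) and Krt20 (ratio 0.47) did not pass.

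BBR mouse 3 had the highest smooth muscle sum of the 6 mice, and its Tle3 and Tcf7l1 values were the lowest of the BBR group. The SASP mice ran the other way: the sum was 706, 2217 and 1620 FPKM in mice 1, 2 and 3. Tle3 (2.77, 6.11 and 3.86 FPKM) and Tcf7l1 (5.54, 7.62 and 7.38 FPKM) followed that order. When a smooth muscle score entered the model as a covariate, 0 of the 8 genes passed (19 of all tested genes did), and Tle3 had a log2 fold change of 1.24 (adjusted p = 0.235), Tle6 of 0.57 (adjusted p = 0.253) and Tle2 of 0.54 (adjusted p = 0.325). The score did not overlap between the groups, at 8.255 to 9.449 in BBR mice and 6.348 to 7.935 in SASP mice. This fit could therefore not separate score and drug well, and the SE of Tle3 grew from 0.28 to 0.44. Leaving out both extremes of this score, BBR mouse 3 and SASP mouse 1, an alternative chosen after seeing the data, left 4 genes past the threshold: Tcf7l1, Tle3 and Tle6 higher and Tle4 lower. In that fit 24.8% of all tested genes passed. The part of the stromal markers in the TLE differences was otherwise not tested. In bulk tissue, fewer cells of a type and less RNA per cell cannot be told apart.

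Among the genes that varied over the mice much as Tcf7l1 did was a posterior Hox gene. By the smallest root mean square difference of centred log2 values over the 6 mice, the 3 genes most like it were Adh1 (0.07), an alcohol dehydrogenase gene, Hoxa11 (0.08), a posterior Hox gene, and Zfp444 (0.08), a zinc finger gene. Hoxa11 was at 34.4, 29.4 and 14.5 FPKM in BBR mice and 10.6, 12.4 and 13.7 FPKM in SASP mice, again with BBR mouse 3 just above the SASP group. Since Hox genes mark position along the body axis, all 8 listed Hox genes of paralog groups 10 to 13 were then examined, a choice made after seeing this value. Of these 8, 7 were higher in BBR, 0 passed the threshold by limma, and 2 were higher at an unadjusted p under 0.05, as were 18.4% of all tested genes. Without BBR mouse 3, 5 passed as higher, where 22.2% of all tested genes did. Their summed FPKM was 404.7, 468.2 and 242.3 in BBR mice and 310.4, 274.3 and 332.4 in SASP mice, which overlapped. Not all shared the pattern of Hoxa11. For Hoxa13, Hoxb13, Hoxd10, Hoxd11 and Hoxd13 the groups overlapped and BBR mouse 3 was the lowest of the 6. Hoxd13 was the gene with a negative log2 fold change (-0.27). The part of gut segment in the Tcf7l1 difference was not tested.

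The genes most like Tle6 by the same measure were Ccdc107 (0.06), Ccdc85b (0.06) and Zdhhc14 (0.07). Those most like Ctnnb1 were Shld2, Spire2 and Arhgap15, each at 0.02 from it.

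The rest of the nuclear pathway was read from lists. Counts by direction stand against a general lean, since 7337 of all 12072 tested genes were higher in BBR and 4735 lower. Of 11 tested coactivators that work with β-catenin, 6 were higher, 5 lower and 0 passed by limma (0 at an unadjusted p under 0.05), with a median log2 fold change of 0.01. Those with the smallest p-values were Pygo2, an adaptor that reads histone methylation (0.42, adjusted p = 0.191), and Bcl9l, which bridges it to β-catenin (0.49, adjusted p = 0.349). Without BBR mouse 3, 3 of the 11 passed as higher, near the 22.2% of all tested genes that did so in that fit.

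Among 11 tested repressors of Wnt output other than TLE proteins, 7 were higher and 4 lower, and the median was 0.21. By limma 0 passed, and 3 were higher at an unadjusted p under 0.05, where 18.4% of all tested genes were. After Tle5, the smallest p-value was that of Ctnnbip1, whose product ICAT blocks the binding of β-catenin to TCF. It was at 9.46, 9.92 and 10.3 FPKM in BBR mice and 7.72, 7.63 and 7.66 FPKM in SASP mice, apart between groups, with a log2 fold change of 0.33 (adjusted p = 0.0840). Without BBR mouse 3, 5 of these 11 passed as higher and 1 as lower, where 22.2% and 11.3% of all tested genes did.

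Among 12 genes of the destruction complex and of Dishevelled, which inactivates it, 10 were higher, 2 lower and 1 passed, with a median of 0.14. Dvl1, a Dishevelled gene, rose from 11.0 ± 1.02 FPKM with SASP to 16.3 ± 1.64 FPKM with BBR (SD, n = 3; log2 fold change 0.52, limma adjusted p = 0.0483). Fbxw11, a ubiquitin ligase subunit that marks β-catenin for destruction, had a fold change of 0.28 (adjusted p = 0.135). When mice were left out in turn, Dvl1 passed only without BBR mouse 3, and 4 of the 12 then passed as higher, against 22.2% of all tested genes.

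Genes known as targets of TCF/LEF factors split in direction. Of 20 listed, 13 were tested, 7 were higher and 6 lower, 1 rose and 2 fell, and the median was 0.02. Ccnd1, the cyclin D1 gene, was at 11.1, 12.2 and 8.65 FPKM in BBR mice and at 34.9, 41.3 and 41.7 FPKM in SASP mice. It fell by 1.80 on the log2 scale (SE 0.15, limma adjusted p = 0.00245) and kept its call whichever mouse was left out, but lost it with the smooth muscle covariate (adjusted p = 0.0690). Myc, a growth regulator, was at 3.61, 3.29 and 3.78 FPKM in BBR mice and at 5.98, 8.35 and 7.77 FPKM in SASP mice. It fell by 0.87 on the log2 scale (limma adjusted p = 0.0230), a call that held without BBR mouse 3 or SASP mouse 1 and was lost without any 1 of the others. Both are also proliferation genes under many other regulators.

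Sox9, a transcription factor of the crypt base, was the target that rose. It was at 9.58, 10.3 and 8.15 FPKM in BBR mice and 4.50, 4.86 and 5.91 FPKM in SASP mice, with a log2 fold change of 0.77 (adjusted p = 0.0279), and was kept only without BBR mouse 3 when mice were left out. Axin2, the target most often read as a sign of Wnt activity, was at 1.79, 3.49 and 0.61 FPKM in BBR mice and 1.61, 2.35 and 2.56 FPKM in SASP mice. The BBR mice spanned the SASP range, and the fold change of -0.21 had an adjusted p of 0.711. With the smooth muscle covariate the calls of Myc, Sox9, Dvl1 and Ankrd24 were lost too, in a fit where only 19 of all tested genes passed. The stem cell target Lgr5 and 6 further targets were too low to be tested.

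Of 6 genes of the cadherin and catenin complex at adherens junctions, where β-catenin also acts, 4 were higher, 2 lower and 0 passed by limma (0 at an unadjusted p under 0.05), with a median of 0.14. The smallest p-values were those of Cdh5, the endothelial cadherin gene (0.40, adjusted p = 0.176), and Jup, the plakoglobin gene (0.20, adjusted p = 0.196).

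**Figure D5:**
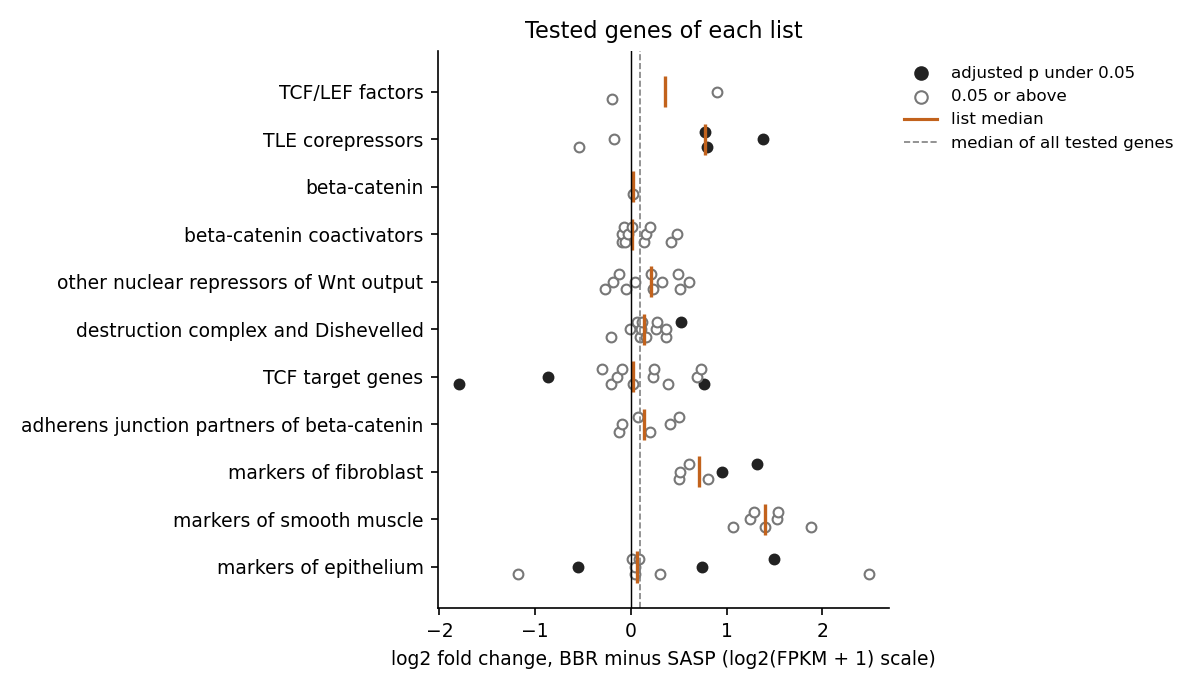
Log2 fold changes of BBR over SASP for every tested gene of each list on the log2(FPKM + 1) scale, with filled points for an adjusted p under 0.05, an orange bar at the list median and a dashed line at the median of all tested genes (0.10). Filled points on the nuclear lists are those of Tle3, Tle2 and Tle6, coactivators, other repressors and junction genes have none, and target genes have filled points on both sides of 0.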

How the data were processed

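The deposited table held FPKM values per gene and sample, which the authors calculated after alignment of short single-end reads. The submitters' processing notes name Bowtie2 2.2.5, RSEM 1.2.12 and the genome build mm9, and the annotation is not given in the sources used here. RSEM divides reads that fit several genes, so values of similar paralogs carry that uncertainty. FPKM are not counts, and no count model was used. Depth was estimated at 16.4 to 18.2 M reads per library, from 31 to 56 genes each, and reads per gene are approximate. The estimate used genes with short transcripts that were above 0 in a single library. Each such value was assumed to stem from a single read, and the median was taken.

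Groups were taken from the treatment labels. Genes that reached 1 FPKM in 3 or more of the 6 libraries were compared as log2(FPKM + 1) with limma 3.58.1 (R 4.3.3). The fit used a variance trend, two-sided tests and Benjamini-Hochberg adjustment. The fit and adjustment, but not the filter, were tested on simulated data with independent noise per gene. That simulation held no outlying mouse. By limma 1069 of 12072 genes passed, 461 higher and 608 lower in BBR, and with median-ratio scaling 499 higher and 1184 lower. With 3 mice per group, exact permutation gives no two-sided p below 0.10 and was not used. Tcf7 and Lef1 are given as values. The members, the pathway lists and the markers were chosen with earlier results of these data known. Named were all 10 members, Tle5, the 2 genes with the smallest p of each pathway list, and the 3 genes nearest to Tcf7l1, Tle6 and Ctnnb1. The neighbours on chromosome 10, Sox9, Axin2, Lgr5, single markers and the Hox genes were added outside this rule, after their values were seen. Alternatives were another pseudocount (0.1), no filter, a mean FPKM of at least 5, quantile normalization, median-ratio scaling, no variance trend, array quality weights, a smooth muscle covariate, an unadjusted threshold and each mouse left out.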

Additional observations from a re-analysis of the deposited data

How the results depend on the processing

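Over the alternatives, the 3 calls among the 8 tested genes (Tle2, Tle3 and Tle6) came to 1 with no filter on low values, 1 with a mean of at least 5 FPKM (which leaves Tle2 and Tle6 untested), 7 with array quality weights, 0 with the smooth muscle covariate and 5 at an unadjusted p of at most 0.05. Leaving out each mouse in turn gave 0 to 5. The count over all tested genes, 1069, became 608 with no filter, 1737 with quantile normalization, 1683 with median-ratio scaling, 7126 with array weights, 19 with the smooth muscle covariate, 3837 unadjusted, 2988 with both extremes of the smooth muscle score left out, and 96 (without SASP mouse 3) to 4051 (without BBR mouse 3) on leaving out each mouse. Without BBR mouse 1, BBR mouse 2, SASP mouse 1 or SASP mouse 2 it was 133, 376, 127 and 522. The median log2 fold change of the tested genes, 0.39, was 0.50 with a pseudocount of 0.1, 0.29 with median-ratio scaling, 0.26 with array weights and 0.28 with the smooth muscle covariate, and it turned to -0.079 with a mean of at least 5 FPKM, where Tle2 and Tle6 drop out. It was 0.33 to 0.43 when mice were left out. The difference in the TCF to TLE ratio, -0.07, ranged from -0.26 to 0.08 without each mouse and was 0.16 without Tcf7l2 and -0.02 without Tle6.

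Tcf7l2 turned to 0.018 with the smooth muscle covariate. Ctnnb1, at 0.02, turned to -0.11 with median-ratio scaling, which shifted the median of all genes by -0.12, to -0.0017 with array weights, -0.033 with the smooth muscle covariate and -0.011 with both extremes left out, and ran from -0.0063 (without SASP mouse 1) to 0.034 (without SASP mouse 2) on leaving out each mouse. With quantile normalization Ctnnb1 moved the other way, to 0.11. The cause of these shifts was not tested beyond the genes and mice named. No paired analysis was possible because the labels give no numbers that tie mice across the groups. Tle2, Tle6, Tcf7 and Lef1 rest on few reads, and 3 mice per group limit every call.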
